A study of Mus musculus with 15 samples.

Results

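The 10 genes described here control the lysosome and autophagy under the kinase complex mTORC1: the transcription factor genes Tfeb, Tfe3, Mitf and Tfec, the folliculin gene Flcn with its partners Fnip1 and Fnip2, the autophagy kinase genes Ulk1 and Ulk2, and Mcoln1, which encodes a lysosomal calcium channel. They were taken by name, 10 of 21883 genes examined, and the rule that gathered their peaks used no peak score. For each gene, every ATAC-seq peak in the gene body and within 50 kb of either end (mm10) was collected, which gave 115 peaks: 36 of the 19189 in the KO list, 48 of the 28391 in the KI list and 31 of the 17316 in the WT list.

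The peaks come from adult mouse haematopoietic stem cells (HSC), sorted from mice given poly(I:C), with 1 library per genotype. KO cells were Mx1-Cre+/- and mTORflox/flox, KI cells were Mx1-Cre+/- and mTORflox/knockin, and WT control cells were Mx1-Cre-/- and mTORflox/flox, so the controls carried floxed alleles as well. All 3 groups received poly(I:C), which switches on the interferon-responsive Mx1 promoter that drives Cre in many cell types. Only the mutants carried Cre, so an effect of Cre and one of the Mtor alleles cannot be told apart in comparisons with WT. Re-analysis is noted in the labels for KO and WT only, so a batch difference cannot be told apart from the KI genotype either. In bulk libraries a change in the mix of cells and one in accessibility per cell cannot be told apart. With 1 library per genotype there was no replicate check and no test between genotypes, and every difference below is one between 3 peak lists of unknown read depth.

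As background, mTORC1 sits on the lysosome when amino acids are plentiful and phosphorylates TFEB, TFE3 and MITF, which keeps them in the cytoplasm. When mTORC1 is inactive they enter the nucleus and bind E-box elements, named CLEAR elements at lysosomal genes, and raise lysosome and autophagy gene expression. Folliculin, bound to FNIP1 or FNIP2, acts on the Rag GTPases that bring TFEB and TFE3 to mTORC1. ULK1 and ULK2 start autophagosome formation and are inhibited by mTORC1, and calcium released through the Mcoln1 channel activates calcineurin, which removes phosphate from TFEB.

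Promoter sequences were matched for all 10 genes in RefSeq (assembly GRCm38.p6, to which mm10 corresponds), with 15 annotated starts among them. The 250 bases before the start are printed for the genes whose sequence or peak pattern stood apart. Mcoln1 and Fnip1 are shown because they held the E-box CACGTG, written in capitals together with the longer CLEAR core TCACGTGA where it occurs. Tfec is shown because it was the only gene without a start peak in one of the lists, and the 2 upstream starts of Tfeb because the lists differed between them.
Mcoln1, chr8:3500269-3500518, plus strand: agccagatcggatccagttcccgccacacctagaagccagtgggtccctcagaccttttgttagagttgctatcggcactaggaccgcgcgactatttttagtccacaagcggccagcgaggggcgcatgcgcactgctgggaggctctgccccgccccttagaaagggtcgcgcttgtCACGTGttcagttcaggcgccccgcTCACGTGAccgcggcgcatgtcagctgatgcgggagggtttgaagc
Fnip1, chr11:54437929-54438178, plus strand: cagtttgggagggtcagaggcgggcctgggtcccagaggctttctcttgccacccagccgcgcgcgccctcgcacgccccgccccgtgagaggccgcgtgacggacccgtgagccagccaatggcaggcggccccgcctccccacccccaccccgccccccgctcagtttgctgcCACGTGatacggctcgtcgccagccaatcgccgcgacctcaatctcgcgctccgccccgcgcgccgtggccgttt
Tfec, chr6:16898442-16898691, minus strand: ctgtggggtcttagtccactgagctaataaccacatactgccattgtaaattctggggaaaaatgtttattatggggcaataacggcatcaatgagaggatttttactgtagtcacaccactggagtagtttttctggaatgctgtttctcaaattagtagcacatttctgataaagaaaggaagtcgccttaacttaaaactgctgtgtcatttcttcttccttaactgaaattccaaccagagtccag
Tfeb, upstream start, chr17:47736787-47737036, plus strand: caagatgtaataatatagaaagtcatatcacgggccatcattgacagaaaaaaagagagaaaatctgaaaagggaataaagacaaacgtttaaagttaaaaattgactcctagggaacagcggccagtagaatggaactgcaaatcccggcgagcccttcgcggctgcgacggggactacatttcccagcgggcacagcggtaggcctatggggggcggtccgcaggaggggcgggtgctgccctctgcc
Tfeb, start at 47737931, chr17:47737681-47737930, plus strand: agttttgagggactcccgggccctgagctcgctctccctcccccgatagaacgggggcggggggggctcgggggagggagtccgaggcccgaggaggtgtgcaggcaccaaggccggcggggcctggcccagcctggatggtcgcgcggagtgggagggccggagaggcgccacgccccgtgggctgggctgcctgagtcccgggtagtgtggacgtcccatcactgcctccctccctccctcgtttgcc
The Mcoln1 sequence holds 2 matches of CACGTG, beginning 71 and 45 bases before the start, and the nearer one lies inside the single match of TCACGTGA, which begins 46 bases before it. Fnip1 holds 1 match of CACGTG, beginning 75 bases before its start. Over whole 300-base promoter windows, from 250 bases before to 50 after the start and on both strands, CACGTG was found in 2 of the 15 windows of the 10 genes and in 7.15% of all 32851 windows. TCACGTGA was found in 1 of the 15 and in 0.974% of all windows. A further motif, the M-box TCATGTG, was found in none of the 15 and in 3.77% of all windows. These matches describe letters in the windows and not binding.

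A peak lay within 1 kb of an annotated start in 10 of the 10 genes in KO, 9 in KI and 10 in WT. Over all 21883 genes the share with such a start peak was 45.3% in KO, 52.7% in KI and 45.5% in WT. The 1 gene without a start peak was Tfec in KI. Thus 1 of the 10 genes lost its start peak in KI relative to WT, against 2.93% of all genes with one in WT, and 0 of 10 in KO, against 10.3%. Each peak carries the score the authors deposited, read here as 10 × −log10 of a p-value from the peak caller, and its percentile is the share of its own list that scores lower. Percentiles place a peak within its list and do not measure a change between lists of different length. The median percentile of the best start peak was 66.4 over the 10 genes in KO, 75.7 over the 9 in KI and 61.0 over the 10 in WT, against 72.0, 78.4 and 69.6 over all genes with a start peak in KO, KI and WT. Start peaks of the group thus stood slightly below the middle of all start peaks in each list.

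**Figure D1:**
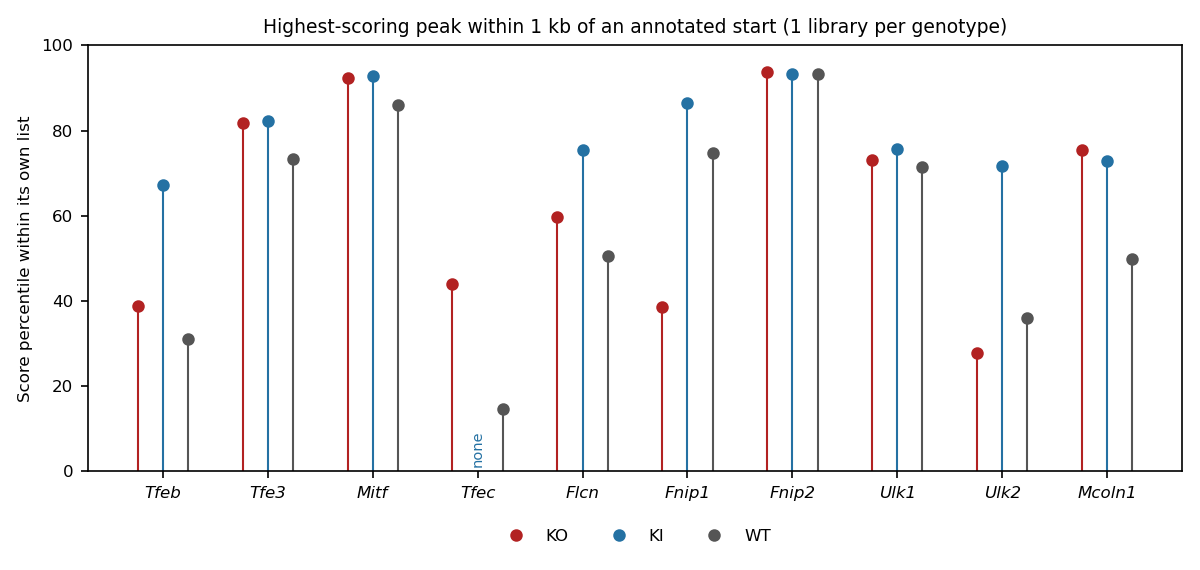
Percentile of the highest-scoring peak within 1 kb of an annotated start, for each gene (x axis) in the KO, KI and WT lists; 1 point is 1 peak of 1 library, and the y axis runs from 0 to 100 within each list. Fnip2 and Mitf stand highest in all 3 lists (86.0 to 93.9), Tfec has no KI point, and Fnip1 stands at 38.7 in KO, 86.5 in KI and 74.7 in WT.

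The 9 genes with a start peak in every list stood in the same order in KI and WT, and in another order in KO. Fnip2 was the highest and Mitf the second in each list, Ulk1 was 5 and Flcn 6 in each, and Tfe3 was 3 in KO, 4 in KI and 4 in WT. Fnip1 was 9 in KO, 3 in KI and 3 in WT, and Mcoln1 was 4 in KO, 7 in KI and 7 in WT. Tfeb was 8 in KO, 9 in KI and 9 in WT, Ulk2 was 10, 8 and 8, and Tfec was 7 in KO and 10 in WT. No replicate gives the spread of these positions.

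To place the start peaks on one set of genes, each was placed among the 8854 genes with a start peak in all 3 lists, 0 being the lowest and 100 the highest place. Fnip1 stood at 12.5 in KO, 56.2 in KI and 52.0 in WT. The KO minus WT difference of -39.5 was at least as far below zero in 224 of the 8854 genes (2.53%). Mcoln1 stood at 50.2 in KO, 25.2 in KI and 21.4 in WT, and its KO minus WT difference of 28.7 was reached by 562 genes (6.35%). For 6 of the other genes ranked the KO minus WT difference lay between -0.55 (Ulk1) and 11.4 (Mitf). For Ulk2 it was -3.76, but its best KO peak lay 498 bp past the start without overlapping the WT peak, and the KO peak over the start scored lower (55.02 against 65.72). In KI the differences from WT ran between -16.4 (Ulk1, as far in 14.3% of genes) and 11.5 (Ulk2). The middle 95% of all genes spanned -39.6 to 39.0 for KO minus WT and -34.3 to 34.8 for KI minus WT, and each of the 9 ranked genes lay inside both ranges.

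Tfeb, the factor that gives the family its name, spans chromosome 17 from 47737037 to 47792416 on the plus strand, with annotated starts at 47737037, 47737931 and 47785744. Its window held 4 peaks in KO, 7 in KI and 6 in WT. The upstream start lay under a peak in every list, which was 324 bp wide with a score of 75.08 (percentile 38.9) in KO, 587 bp wide with a score of 135.37 (percentile 67.3) in KI and 459 bp wide with a score of 71.41 (percentile 31.00) in WT. This start was covered in all 3 genotypes. Among the 8854 genes with a start peak in every list its place was low in each, 12.7 in KO, 17.3 in KI and 9.18 in WT. At the second start, 47737931, KI had a peak 576 bp wide with a score of 67.06 (percentile 28.04) over the start itself. A WT peak 634 bp wide with a score of 51.84 (percentile 3.10) began 127 bp past that start and shared 1 bp with the KI peak, and KO had none there. The region counts as common to KI and WT only through that single base. The start at 47785744 had no peak within 1 kb in any list.

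Inside the Tfeb gene body a region 16183 to 16262 bp past the second start was shared by all lists, 512 bp wide with a score of 76.81 (percentile 40.8) in KO, 319 bp wide with a score of 88.85 (percentile 47.2) in KI and 474 bp wide with a score of 68.23 (percentile 27.3) in WT. A weak peak further inside was seen in WT alone, 391 bp wide with a score of 57.35 (percentile 12.3). KI alone had a peak 21679 bp before the upstream start, 274 bp wide with a score of 58.5 (percentile 15.3), and another 143 bp past the annotated end, 337 bp wide with a score of 62.35 (percentile 21.2). None of these 3 list-specific peaks exceeded percentile 21.2 of its list. Farther upstream the window reached the starts of Frs3, an adaptor of fibroblast growth factor receptors, and Prickle4, where the peak was 692 bp wide with a score of 131.64 (percentile 72.8) in KO, 711 bp wide with a score of 216.69 (percentile 82.95) in KI and 683 bp wide with a score of 154.59 (percentile 74.9) in WT. At Tomm6, which encodes a subunit of the mitochondrial import pore, and Tomm6os it was 730 bp wide with a score of 117.43 (percentile 67.6) in KO, 685 bp wide with a score of 187.92 (percentile 78.8) in KI and 610 bp wide with a score of 117.9 (percentile 61.7) in WT. Both neighbouring starts were open in all 3 lists and outscored the Tfeb start in each. The Tomm6 peaks, 48586 to 48658 bp from Tfeb, were the last inside the 50 kb limit in every list, and the next beyond it were near Fnip2, at 59972 bp in KO (score 404.38), 59415 bp in KI (405.52) and 60220 bp in WT (337.15).

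Tfe3, which acts alongside TFEB in many cell types, spans chromosome X from 7762530 to 7775202 on the plus strand, with starts at 7762661 and 7763943. Its window held 5 peaks in KO, 6 in KI and 3 in WT. The start peak was 789 bp wide with a score of 164.5 (percentile 81.9) in KO, 697 bp wide with a score of 212.4 (percentile 82.4) in KI and 567 bp wide with a score of 149.52 (percentile 73.2) in WT. It was thus well above the middle of each list, and no peak covered the second start. At 47757 to 47819 bp upstream of the gene, with no annotated start within 1 kb, a region was open in all lists, 608 bp wide with a score of 129.51 (percentile 72.1) in KO, 686 bp wide with a score of 301.19 (percentile 91.3) in KI and 704 bp wide with a score of 219.03 (percentile 87.2) in WT. At Wdr45, an autophagy protein gene upstream, the peak was 687 bp wide with a score of 78.66 (percentile 42.6) in KO, 623 bp wide with a score of 106.19 (percentile 56.6) in KI and 371 bp wide with a score of 56.56 (percentile 10.99) in WT. Both upstream regions were present in each genotype.

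The remaining Tfe3 peaks were missing from at least one list. At Gripap1 and Gm39487, downstream, the mutants had a peak and WT had none, 632 bp wide with a score of 109.39 (percentile 63.8) in KO and 631 bp wide with a score of 125.98 (percentile 64.3) in KI. These 2 peaks had the highest percentiles among the peaks near the 10 genes that a mutant had and WT lacked. KO alone had a peak 3602 bp past the end of Tfe3, 431 bp wide with a score of 64.24 (percentile 25.5). KI alone had one at Praf2, 369 bp wide with a score of 83.78 (percentile 43.7), and one near the downstream edge of the window, 379 bp wide with a score of 52.83 (percentile 5.00).

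Mitf, known from melanocytes, osteoclasts and mast cells, spans chromosome 6 from 97807002 to 98021360 on the plus strand and has starts at 97807058, 97929817 and 97991783. Its window held 4 peaks in KO, 5 in KI and 2 in WT, all of them in the gene body or at the upstream start. That start carried one of the strongest peaks of the set, 1122 bp wide with a score of 238.83 (percentile 92.4) in KO, 1176 bp wide with a score of 324.38 (percentile 92.9) in KI and 857 bp wide with a score of 211.23 (percentile 86.04) in WT. No list had a peak within 1 kb of the other two starts, and the nearest was a KI peak 4016 bp past the last start, 302 bp wide with a score of 59.24 (percentile 16.4). Of the 3 annotated starts of Mitf, the upstream one alone had a peak.

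Weak peaks lay inside the Mitf gene body. One, 22047 to 22085 bp past the upstream start, was shared by KO and WT, 277 bp wide with a score of 65.3 (percentile 27.1) in KO and 378 bp wide with a score of 55.97 (percentile 10.04) in WT, and had no KI counterpart. A pair of others was shared by the mutants and absent from WT. The one 69830 to 69892 bp past the upstream start was 534 bp wide with a score of 67.39 (percentile 30.1) in KO and 332 bp wide with a score of 58.27 (percentile 14.8) in KI, and the other, 80823 to 80875 bp past it, was 443 bp wide with a score of 70.05 (percentile 33.4) in KO and 299 bp wide with a score of 67.22 (percentile 28.2) in KI. KI alone had a further peak 11093 bp past the upstream start, 352 bp wide with a score of 62.5 (percentile 21.5). None of these gene-body peaks exceeded percentile 33.4 of its list.

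Tfec, the member of the family with the narrowest expression, spans chromosome 6 from 16830927 to 16898464 on the minus strand and has a single start at 16898441. Its window held the fewest peaks of the 10 genes in KO and KI, 1 in KO and 2 in KI, and 3 in WT. The start peak was 609 bp wide with a score of 80.14 (percentile 44.1) in KO and 432 bp wide with a score of 58.83 (percentile 14.6) in WT, and KI had none within 1 kb. The nearest KI peak lay 6223 bp past the start, 189 bp wide with a score of 59.49 (percentile 16.8). A region 27932 to 28031 bp past the start was common to KI and WT and absent from KO, 621 bp wide with a score of 75.5 (percentile 36.7) in KI and 382 bp wide with a score of 58.4 (percentile 13.9) in WT. WT alone had a peak 8535 bp past the end of the gene, 392 bp wide with a score of 58.36 (percentile 13.8). Every Tfec peak stood below the middle of its list.

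**Figure D2:**
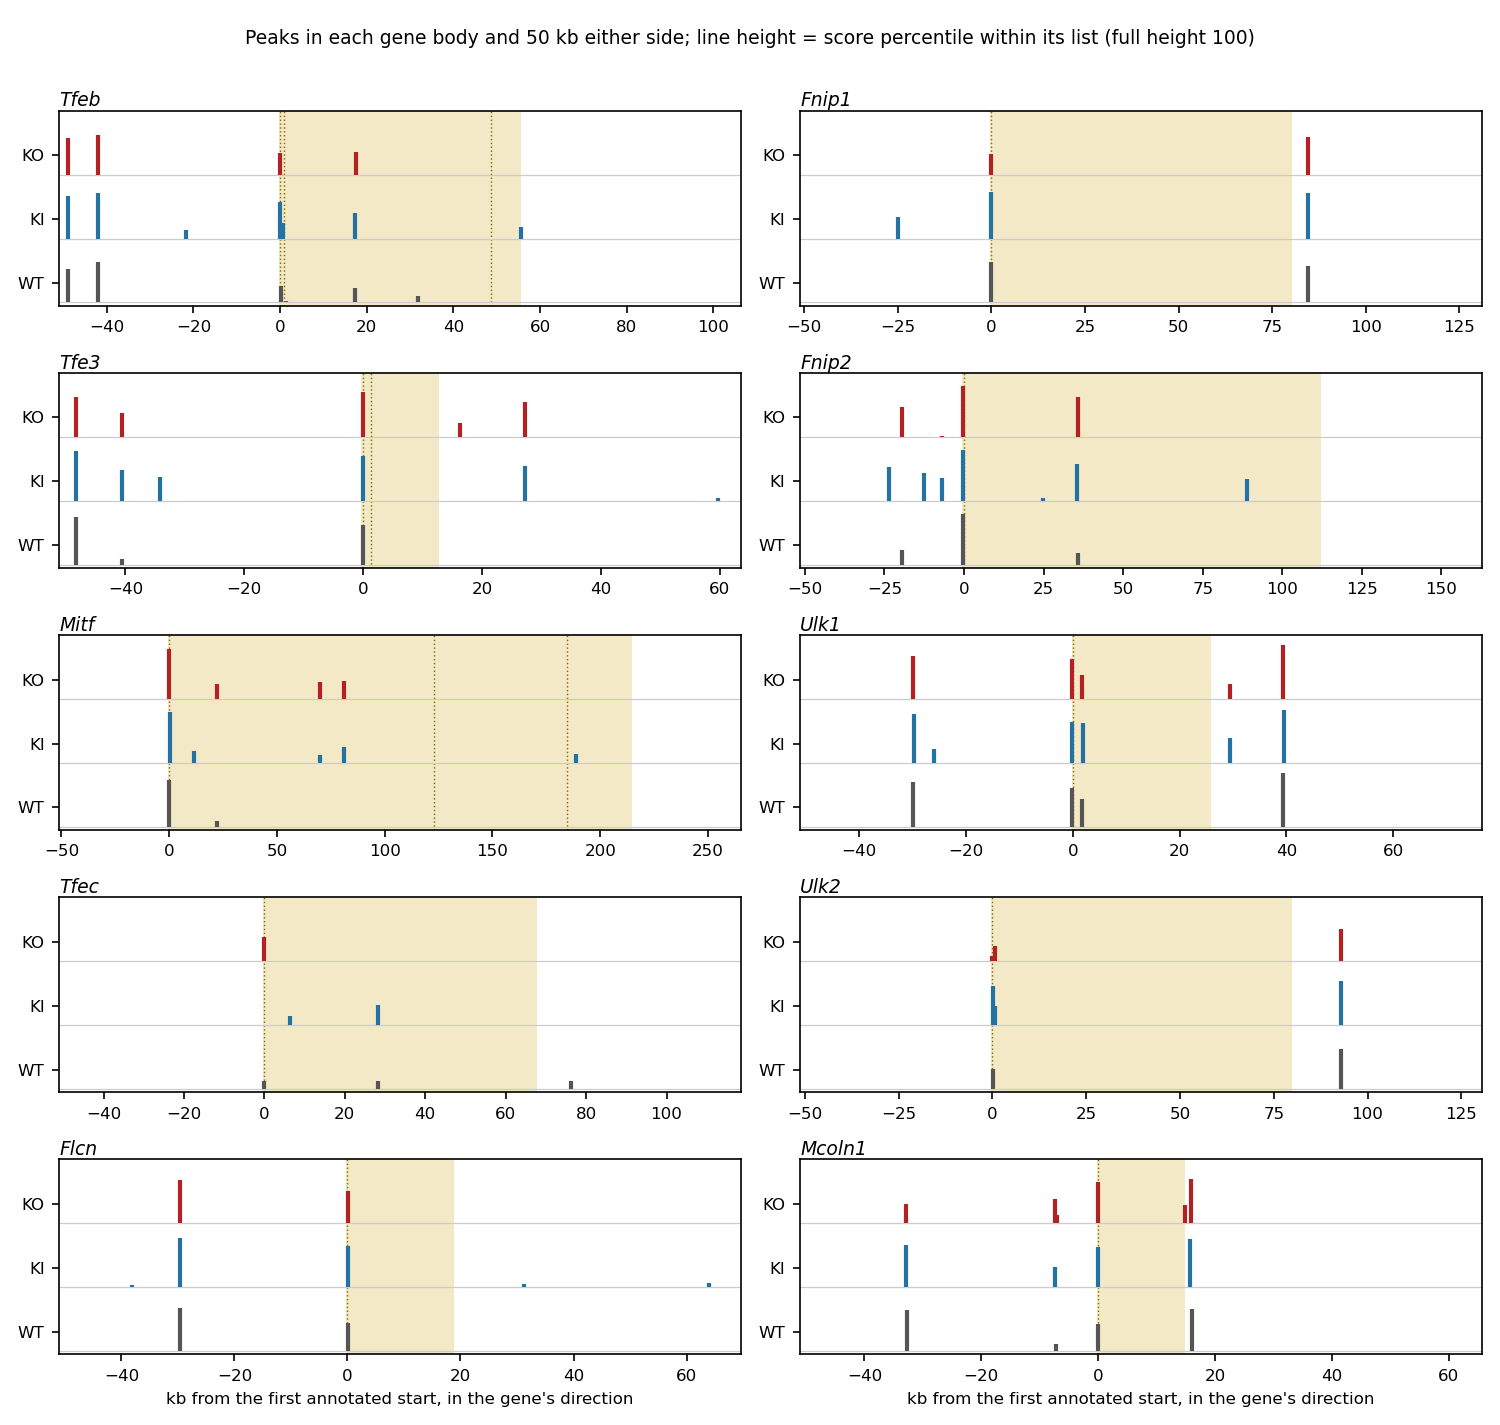
Peaks in each gene body (shaded) and 50 kb either side, with KO, KI and WT as rows from top to bottom; the x axis gives kb from the first annotated start in the gene's direction, dotted lines mark annotated starts, and the height of each line is the peak's percentile within its list. Start peaks are present in all 3 rows except Tfec in KI, and most further lines in the KI rows are short.

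Flcn, whose product folliculin controls TFEB through the Rag GTPases, spans chromosome 11 from 59791408 to 59810039 on the minus strand. Its window held 2 peaks in KO, 5 in KI and 2 in WT. The start peak was 927 bp wide with a score of 101.86 (percentile 59.7) in KO, 872 bp wide with a score of 168.98 (percentile 75.4) in KI and 912 bp wide with a score of 95.38 (percentile 50.5) in WT, and it also lay within 1 kb of the start of Gm16062. At Cops3, a subunit of the COP9 signalosome, the peak was 1029 bp wide with a score of 151.21 (percentile 78.6) in KO, 996 bp wide with a score of 288.5 (percentile 90.4) in KI and 1110 bp wide with a score of 169.44 (percentile 78.7) in WT. Both starts were open in all lists. KI alone had 3 further peaks, all of low score. At the mitochondrial nucleotidase gene Nt5m it was 362 bp wide with a score of 51.77 (percentile 3.18) in KI, and the other 2 lay 12449 and 45207 bp past the end of Flcn, 314 bp wide with a score of 53.43 (percentile 6.02) in KI and 247 bp wide with a score of 54.23 (percentile 7.37) in KI.

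Fnip1, which in mice is needed for B cell development, spans chromosome 11 from 54438107 to 54518241 on the plus strand. The window held 2 peaks in KO, 3 in KI and 2 in WT. Its start peak was 449 bp wide with a score of 74.94 (percentile 38.7) in KO, 857 bp wide with a score of 246.59 (percentile 86.5) in KI and 706 bp wide with a score of 154.12 (percentile 74.7) in WT. This peak covered the E-box of the promoter in each list, and it was the narrowest and lowest-ranked in KO. At Rapgef6, a guanine nucleotide exchange factor downstream, the peak was 798 bp wide with a score of 122.07 (percentile 69.6) in KO, 980 bp wide with a score of 219.22 (percentile 83.2) in KI and 748 bp wide with a score of 131.7 (percentile 67.2) in WT. KI alone had a peak 24728 bp before the gene, 432 bp wide with a score of 79.58 (percentile 40.5).

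Fnip2, the other folliculin partner, spans chromosome 3 from 79455971 to 79568151 on the minus strand. Its window held 4 peaks in KO, 7 in KI and 3 in WT. The start peak was 1290 bp wide with a score of 254.75 (percentile 93.9) in KO, 1280 bp wide with a score of 333.37 (percentile 93.4) in KI and 1220 bp wide with a score of 277.19 (percentile 93.3) in WT, and it shares its place with the start of 4930589L23Rik. It was the widest start peak of the 10 genes in each list. At 35338 to 35534 bp past the start all lists had a peak, 676 bp wide with a score of 133.13 (percentile 73.3) in KO, 609 bp wide with a score of 138.13 (percentile 68.02) in KI and 552 bp wide with a score of 64.09 (percentile 21.9) in WT. A peak 18616 to 18655 bp upstream of the gene was shared by KO and WT, 455 bp wide with a score of 94.19 (percentile 55.1) in KO and 480 bp wide with a score of 67.64 (percentile 26.6) in WT, and KI had none there. One 6124 to 6254 bp upstream of the gene was shared by the mutants, 299 bp wide with a score of 51.13 (percentile 2.01) in KO and 479 bp wide with a score of 81.59 (percentile 42.00) in KI.

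KI alone had 4 more peaks around Fnip2. Inside the gene they lay 24868 and 88827 bp past the start, 177 bp wide with a score of 52.5 (percentile 4.50) in KI and 244 bp wide with a score of 78.23 (percentile 39.2) in KI. Upstream, one lay 12009 bp from the gene, 327 bp wide with a score of 95.79 (percentile 51.5) in KI, and one lay at an end of Ppid, a cyclophilin gene with no strand in the RefSeq promoter table, 584 bp wide with a score of 118.06 (percentile 61.5) in KI. The Ppid peak had the highest percentile of all peaks near the 10 genes that a single list held.

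Ulk1, the main autophagy-initiating kinase, spans chromosome 5 from 110784489 to 110810120 on the minus strand. Its window held 5 peaks in KO, 6 in KI and 4 in WT. The start peak was 732 bp wide with a score of 132.83 (percentile 73.2) in KO, 836 bp wide with a score of 170.82 (percentile 75.7) in KI and 702 bp wide with a score of 143.92 (percentile 71.5) in WT. A neighbouring region just inside the gene, 1234 to 1418 bp past the start, was 938 bp wide with a score of 79.76 (percentile 43.8) in KO, 801 bp wide with a score of 158.64 (percentile 73.04) in KI and 925 bp wide with a score of 95.69 (percentile 50.7) in WT. Both regions were open in all 3 genotypes. At Ep400, which encodes a chromatin remodelling ATPase, and Gm15559, the window held its highest-scoring peaks, 1080 bp wide with a score of 353.26 (percentile 98.1) in KO, 1503 bp wide with a score of 462.98 (percentile 97.7) in KI and 846 bp wide with a score of 375.23 (percentile 97.8) in WT.

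At the checkpoint kinase gene Chek2 and its neighbour Hscb, upstream of Ulk1, the peak was 704 bp wide with a score of 155.18 (percentile 79.5) in KO, 1236 bp wide with a score of 283.01 (percentile 90.03) in KI and 786 bp wide with a score of 191.94 (percentile 82.9) in WT. The mutants had a peak at Pus1, which encodes a pseudouridine synthase, and Gm26515, that WT lacked, 318 bp wide with a score of 65.44 (percentile 27.4) in KO and 624 bp wide with a score of 85.57 (percentile 45.00) in KI. KI alone had one 25777 bp upstream of the gene, 508 bp wide with a score of 65.07 (percentile 25.5). The peaks near Ulk1 that a list lacked were thus at a neighbouring start or distal, and the Ulk1 start had a peak in each list.

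Ulk2, the closest relative of Ulk1, spans chromosome 11 from 61775598 to 61855334 on the minus strand. Its window held 3 peaks in KO, 3 in KI and 2 in WT, all at starts. Over the start the peak was 369 bp wide with a score of 55.02 (percentile 9.53) in KO, 930 bp wide with a score of 152.8 (percentile 71.7) in KI and 693 bp wide with a score of 76.4 (percentile 36.1) in WT. A further peak lay 498 bp past the start in KO, 276 bp wide with a score of 65.72 (percentile 27.8) in KO, and 560 bp past it in KI, 444 bp wide with a score of 74.23 (percentile 35.6) in KI. These further mutant peaks overlapped each other and had no overlap with the WT peak, so they count as absent from WT. They ended at 61854594 in KO and 61854532 in KI, and the WT peak began at 61854644. Merging joined them to the start region common to the 3 lists, so they were not a separate region. At Prpsap2, a regulator of nucleotide precursor synthesis, the peak was 506 bp wide with a score of 98.79 (percentile 57.8) in KO, 691 bp wide with a score of 198.89 (percentile 80.4) in KI and 615 bp wide with a score of 149.04 (percentile 73.1) in WT.

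Mcoln1 spans chromosome 8 from 3500519 to 3515232 on the plus strand, in a gene-dense stretch, and all its window's merged regions had peaks in the 3 lists. There were 6 peaks in KO, 4 in KI and 4 in WT. The start peak was 657 bp wide with a score of 140.48 (percentile 75.6) in KO, 673 bp wide with a score of 158.15 (percentile 72.9) in KI and 728 bp wide with a score of 94.28 (percentile 49.8) in WT. It spanned the whole 300-base promoter window in every list, with both E-boxes inside. At Pex11g, a peroxisome gene, the peak was 403 bp wide with a score of 71.74 (percentile 35.3) in KO, 567 bp wide with a score of 183.6 (percentile 78.03) in KI and 544 bp wide with a score of 158.58 (percentile 75.97) in WT.

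At Zfp358, a zinc finger gene just upstream of Mcoln1, KO had 2 peaks separated by 1 bp, 602 bp wide with a score of 80.75 (percentile 44.8) and 173 bp wide with a score of 58.14 (percentile 15.02). The same place held a single peak 568 bp wide with a score of 74.6 (percentile 35.9) in KI and 427 bp wide with a score of 57.2 (percentile 12.05) in WT. At the phospholipase gene Pnpla6, just past the end of Mcoln1, KO had 2 peaks as well, 457 bp wide with a score of 70.13 (percentile 33.5) and 1207 bp wide with a score of 163.37 (percentile 81.6). A single peak 1883 bp wide with a score of 261.7 (percentile 88.1) in KI overlapped both, and one 1070 bp wide with a score of 164.22 (percentile 77.4) in WT overlapped the downstream one only. Of the additional KO peaks, the downstream one at Zfp358 had no overlap with a KI peak and the upstream one at Pnpla6 none with a WT peak, and merging joined each to a region common to the 3 lists.

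Over the 10 windows, overlapping peaks of the 3 lists were merged into 53 regions. Of these, 24 had peaks in all 3 lists (45.3%, Wilson 95% interval 32.7 to 58.5), against 37.5% of all 32764 merged regions. KI alone held 16 (30.2%, 19.5 to 43.5, against 29.3% overall). KO and KI without WT held 5 (9.43%, against 10.7% overall), and KI and WT without KO held 2 (3.77%, against 7.71%). WT alone held 2 (3.77%, against 5.52%) and KO alone 1 (1.89%, against 7.99%). Regions with KO and WT peaks and no KI peak numbered 3 (5.66%, 1.94 to 15.4, against 1.31% overall). They were the Tfec start, a region in the Mitf gene body and one upstream of Fnip2. Their peaks stood at percentiles 10.04 to 26.6 in WT and 27.1 to 55.1 in KO. With scores of at least 100 in all lists the count was 0. All sharing classes were examined, and this was the only one whose interval excluded its overall share. No allowance was made for the number of classes. Intervals here cover counting error over regions and no replicate error.

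**Figure D3:**
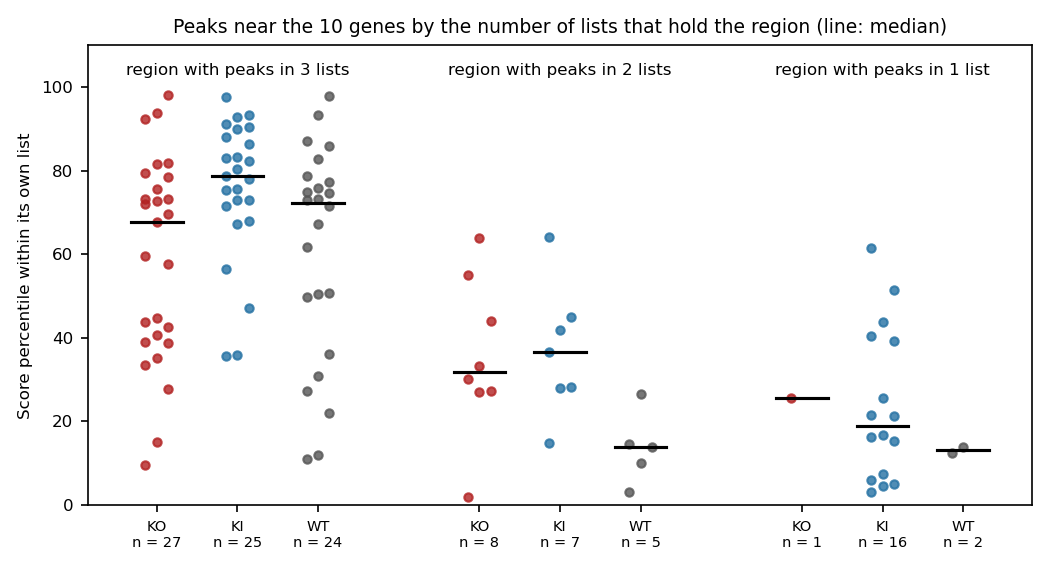
Percentile within its own list (y axis) of each peak near the 10 genes, grouped by whether its merged region has peaks in 3, 2 or 1 of the lists, with KO, KI and WT side by side; points are peaks, lines are medians and n is the number of peaks. Peaks of regions in all 3 lists have medians of 67.6 in KO, 78.8 in KI and 72.3 in WT, and the 16 peaks of KI alone have a median of 19.02.

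The question for each pair of lists was which peaks near these genes one genotype had and the other lacked, at an overlap of 1 bp. KO peaks absent from WT numbered 8 of 36 (22.2%, 11.7 to 38.1), against 32.4% of the whole KO list. WT peaks absent from KO numbered 4 of 31 (12.9%, 5.13 to 28.9), against 25.5% of the WT list. KI peaks absent from WT numbered 22 of 48 (45.8%, 32.6 to 59.7), against 46.5% of the KI list, and WT peaks absent from KI 5 of 31 (16.1%, 7.09 to 32.6), against 13.1%. Between the mutants, 5 of 36 KO peaks were absent from KI (13.9%, 6.08 to 28.7), against 16.0% of the KO list, and 18 of 48 KI peaks were absent from KO (37.5%, 25.2 to 51.6), against 43.2% of the KI list. In all 6 directions the interval around the 10 genes included the share of the whole list, so no direction stood apart from its background. The KO and KI comparisons with WT share the WT list.

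**Figure D4:**
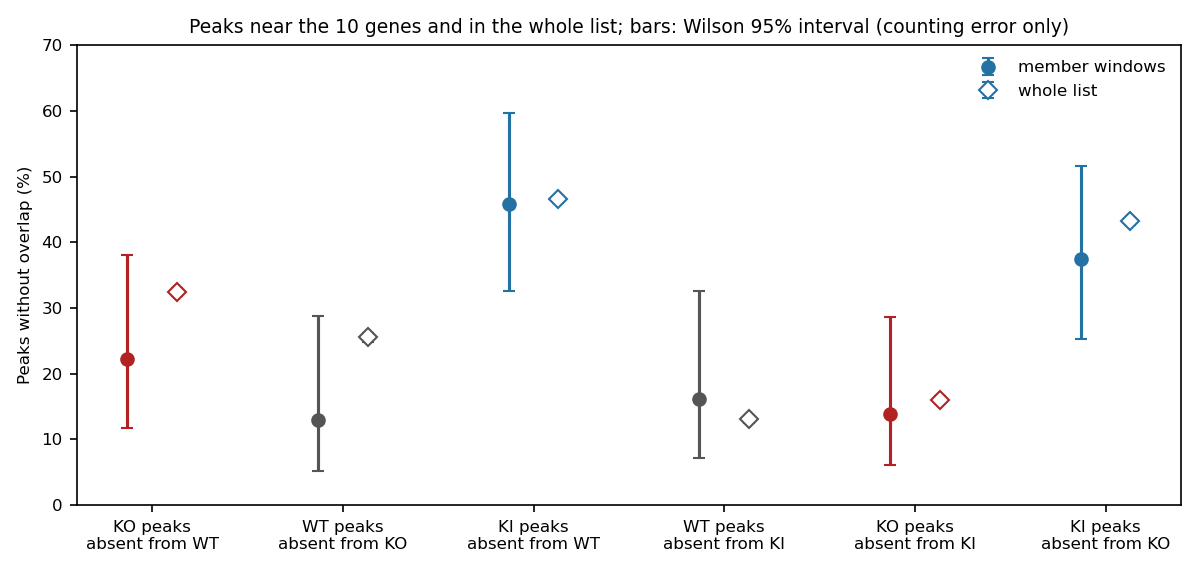
Share of peaks without an overlapping peak in the other list (y axis, %) for peaks near the 10 genes (circles) and for the whole list (diamonds) in each direction; bars are Wilson 95% intervals, which cover counting error only. Each circle's bar includes the diamond beside it.

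Peaks that the other list lacked were the weaker ones. The 8 KO peaks absent from WT had a median percentile of 28.9, against 63.6 for the KO peaks shared with WT, and the 4 WT peaks absent from KO had a highest percentile of 13.9. KI peaks absent from WT had a median of 23.5, against 78.4 for those shared, and the 5 WT peaks absent from KI did not exceed 26.6. Of the peaks in the top 25% of their list, 8 in KO, 16 in KI and 8 in WT, none lacked an overlapping peak in either other list. A count of 0 allows a share of up to about 37.5% for 8 peaks and 18.8% for 16. This rough limit is 3 counts over the number of peaks and is not a Wilson limit. The same medians over the whole lists and the same share over the top 25% of each whole list are not given. The medians and the 0 thus have no background beside them, and neither is set apart as a trait of these genes.

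The share absent was lower at gene starts than away from them, near these genes as in the whole lists. Of the KI peaks at gene starts, 6 of 27 were absent from WT (22.2%), against 22.3% of all KI peaks at starts, and away from starts 16 of 21 were (76.2%, 54.9 to 89.4), against 64.8%. Among the KO peaks 4 of 26 at starts were absent from WT (15.4%) and 4 of 10 away from starts (40.0%), against 13.8% and 52.5% in the whole list. A start here is an annotated start within 1 kb, or either end of a gene without a strand in the promoter table.

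Base composition of the promoters varied with the presence of a peak. The CpG ratio, the observed number of CG pairs over that predicted from the C and G content, was at least 0.6 in 9 of the 15 promoter windows, and 8 of these overlapped a peak in every list. The exception was the last start of Mitf (ratio 0.673). Of the 6 windows under 0.6, the Tfe3 upstream start (0.520) overlapped a peak in all lists, the Tfec start (0.246) in KO and WT, the second Tfeb start (0.545) in KI, and 3 in none. Over all promoter windows, a peak overlapped 68.5% in KO, 77.6% in KI and 69.4% in WT of those at 0.6 or more, and 9.06%, 12.2% and 9.03% of those below. Tfec, with 3 CG pairs and 40.3% G and C, was the start of lowest CpG ratio among those with a peak.

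Other genes of the pathway were read from 5 lists of 124 genes, by the presence of a start peak. Of these genes 100 had one in KO, 114 in KI and 100 in WT, and 94 in all 3. Gained means a start peak in the mutant and none in WT, and lost the opposite. KO gained 6 of the 24 list genes without a WT start peak and lost 6 of the 100 with one, against 8.36% and 10.3% over all genes. KI gained 14 of 24 and lost 0 of 100, against 15.7% and 2.93% over all genes. The all-gene shares are an unlike baseline, since 100 of the 124 list genes had a WT start peak, against 45.5% of all genes. None of the peaks behind these gains and losses overlapped a peak of the other list, an outcome that the definition of gained and lost nearly fixes in advance. Gains in KO and KI are counted against the same WT list.

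Lysosomal enzyme and membrane genes made up 5 of the 6 gains in KO and 11 of the 14 in KI, and also 15 of the 24 genes without a WT start peak (62.5%). They made up 4 of the 6 losses in KO, and 47 of the 100 list genes with a WT start peak (47%). Among 30 lysosomal enzyme genes, 21 had a start peak in KO, 27 in KI and 19 in WT, so KO gained 3 and lost 1 (Ctsa) and KI gained 8 of the 11 without one in WT. Tpp1, a lysosomal peptidase, had a start peak with a score of 85.79 (percentile 48.9) in KO and 126.35 (64.4) in KI, and none in WT. Man2b1, an alpha-mannosidase, had 60.93 (20.03) in KO and 105.77 (56.4) in KI, and Naglu, which degrades heparan sulfate, had 65.81 (27.9) in KO and 93.96 (50.4) in KI. Gaa, the acid alpha-glucosidase, was gained in KI alone (145.51, percentile 69.9). At equal list size, the 17316 highest-scoring peaks of each list, KO gained 3 of these 11 enzyme genes and KI 5, against 6.82% in KO and 7.82% in KI over all genes. There KO also lost 3 enzyme genes and KI 1. Over the 5 lists KO gained 6 of 24 and lost 9 of 100, and KI gained 10 of 24 and lost 5 of 100. Over all genes at that size KO lost 1245 and KI 812 of the 9950 with a WT start peak.

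Among 32 genes of lysosomal membrane proteins and the proton pump, 27 had a start peak in KO, 31 in KI and 28 in WT, and KO gained 2 and lost 3 while KI gained 3 and lost 0. Cd63, a tetraspanin of late endosomes, had one in KO (107.25, percentile 62.7) and KI (151.2, 71.3) but not in WT. The pump subunit gene Atp6v0e likewise had one in KO (55.35, 10.1) and KI (84.55, 44.3). Other pump subunit genes, Atp6v0a1 (65.64 in WT, percentile 24.02) and Atp6v0b (73.18 in WT, percentile 32.9), were lost in KO. Clcn7, a lysosomal chloride transporter, was gained in KI (93.7, 50.2). Mcoln2, a relative of Mcoln1, was lost in KO (95.16 in WT, percentile 50.3) and had one in KI (63.7, percentile 23.3).

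In the autophagy lists most start peaks were common to all genotypes. Of 19 autophagy initiation genes 16 had a start peak in all 3 lists, and Becn1, a subunit of the autophagy lipid kinase, was gained in KI (120.11, percentile 62.2). It has no strand in the promoter table, so the peak may lie at either end. Of 21 autophagosome formation genes 16 had one in all lists. Map1lc3b, which encodes the lipid-anchored protein LC3B, was gained in KO (56.34, 11.9) and KI (91.21, 48.7), its relative Gabarap was gained in KI (52.04, 3.66), and the autophagy receptor gene Optn was lost in KO (164.72 in WT, percentile 77.5). Among 22 genes of Rag, Ragulator and phosphatase inputs 19 had one in all lists, and Prkaa2, an AMP-activated kinase subunit, was lost in KO (92.59 in WT, percentile 48.9).

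**Figure D5:**
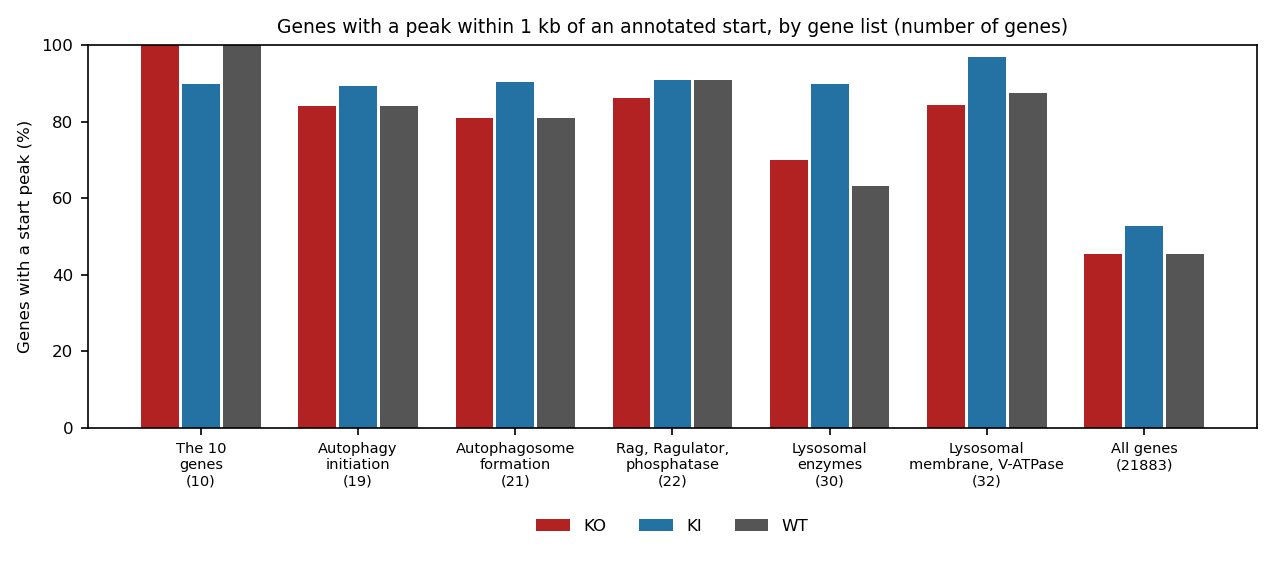
Share of genes with a peak within 1 kb of an annotated start (y axis, %) in KO, KI and WT for the 10 genes, the 5 pathway lists and all genes, with the number of genes in brackets; bars are shares of genes and carry no error, since there is 1 library per genotype. Lysosomal enzymes have 21 of 30 genes in KO, 27 in KI and 19 in WT.

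The targeted gene and cell type markers were checked in the same lists. Mtor had a start peak in KI and WT (210.27 and 341.21) and none in KO. Of 12 HSC marker genes 5 had a start peak in KO, 8 in KI and 8 in WT, with Gata2, Fgd5 and Slamf1 without one in any list. None of 8 T and NK lymphoid markers had one in any list. Of 7 B lymphoid markers 0 had one in KO, 1 in KI and 1 in WT, of 8 erythroid markers 1 in KO, 2 in KI and 0 in WT, and of 9 granulocyte and monocyte markers 0 in KO, 4 in KI and 0 in WT. The KI list was the longest, and these myeloid peaks stood at percentiles 7.54 to 30.0 within it. The part of list length or of the mix of cells in the KI gains above was not tested.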

How the data were processed

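ATAC-seq, in which a transposase cuts accessible DNA, was run on 50000 sorted cells per library for 30 min at 37 °C, per the labels' protocols. The 12 RNA-seq samples were not analysed here. The authors deposited 1 peak list per library, with 5 columns and no header, so calls were made library by library with no pooling. Peak names have the form that MACS writes, and the fifth column is the deposited score of each peak. Scores served to rank or select peaks inside 1 list. mm10 is named as the build and CASAVA as a tool, per the submitters' processing notes. The aligner, the treatment of duplicates, any read shift and the control are not given in the sources used, and depth is unknown. The number of weak peaks called depends on depth.

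Autosomal, X and Y peaks were used, in 1-based coordinates. A peak was absent from another list when no peak overlapped it by 1 bp. Starts came from the RefSeq promoter table (GRCm38.p6), which covered 17491 of the 21883 genes and 98 of the 124 pathway genes, and both gene ends were used for the others. All 179 list genes were matched, 1 by an older name. Tied scores shared the mean of their percentiles. Shares carry Wilson 95% intervals (scipy 1.17.1), and there was no test between genotypes. The code was tested on simulated peaks. The genes and lists were chosen with earlier results of these data known. All 10 genes were named, and of each pathway list up to 4 genes that differed from WT, by percentile. Ctsa, Atp6v0a1 and Atp6v0b were named beside counts after their values were seen. Alternatives were other windows, distances to the start, overlaps and score limits.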

Additional observations from a re-analysis of the deposited data

How the results depend on the processing

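With 1 library per genotype no replicate could be left out, and read depth, which sets how many weak peaks are called, is unknown. No paired analysis was possible because each ATAC-seq genotype has 1 library. Of 106 recomputed values 82 stayed within the interval of the reported share or within 1.5 times the reported count or place difference, and 24 moved. Among the 82, the KO peaks numbered 25 with a window of 10 kb and 47 with one of 100 kb, the KI peaks 63 with 100 kb, and the WT peaks 21 with 10 kb and 41 with 100 kb.

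With scores of at least 100, the peaks near the 10 genes numbered 16 in KO, 24 in KI and 15 in WT, start peaks were left at 6 of the 10 genes in KO, 9 in KI and 5 in WT, and 0 WT and 0 KO peaks were absent from KI. The KI peaks numbered 28 with a window of 10 kb and 31 at equal list size (17316 peaks). At equal list size 25.8% of KI peaks were absent from WT and 19.4% from KO, and 6 regions in place of 16 had a KI peak alone. KO there lost 9 pathway genes against WT in place of 6 and KI 5 in place of 0. Over all genes KO lost 1245 in place of 1028 and KI 812 in place of 292. Among peaks near the 10 genes in the top 25% of their list the share absent was 0 in all 6 directions, without a whole-list share beside it. The regions with KO and WT peaks and no KI peak numbered 4 at equal list size and 0 with scores of at least 100. The place of the Fnip1 start peak, KO minus WT, ran between -40.3 and -39.2 over 3 alternatives added after the data were seen, as were the alternatives for merged regions and for genes of known strand.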
